A study of Mus musculus with 19 samples.

Results

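The 28 genes described here encode proteins of the lysosome, the acidic compartment in which cells degrade proteins, glycans and lipids. They were followed in mouse hepatic stellate cells (HSCs), the vitamin A-storing pericytes of the liver, as these cells went from the freshly sorted state into culture activation. The members are a list of symbols drawn up by their place in the lysosome, with earlier results of these data known. Each of the 28 matched a single Ensembl identifier among the 55487 in the count table. All 28 passed the filter on low counts that left 15138 genes for testing. The donors were uninjured Balb/c males, 23 to 24 weeks old and without a transgene named in the labels. Their HSCs were isolated by sorting on ultraviolet positivity. A fraction was collected without culture (0 h, n = 2, labelled M2 and M3). The rest was sorted onto collagen-coated plates with 24 wells in Dulbecco's modified Eagle's medium with 10% fetal bovine serum and collected after 3, 6, 12, 18 and 96 h (n = 3 each, M1, M2 and M3) or 24 h (n = 2, M1 and M2). Medium was replaced at 3 h and again at 24 h. Each sample stands for 2 technical repeats. M1 and M3 share an isolation date and M2 has a later date. The repeats of a timepoint are described by the study as independent. Neither this description nor the labels say whether each M number is a separate animal, so the p-values measure the spread between these repeats.

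Lysosomal hydrolases are made in the endoplasmic reticulum, tagged with mannose 6-phosphate in the Golgi and delivered through endosomes, where a proton pump, the V-ATPase, provides the acid pH they need. Heavily glycosylated membrane proteins such as LAMP1, LAMP2 and LIMP-2 (encoded by Scarb2) line the compartment, and autophagosomes fuse with it to have their load degraded. The transcription factor TFEB binds a palindromic DNA element with the core CACGTG in promoters of many lysosome genes. In HSCs, loss of the vitamin A droplets accompanies activation, and lysosomal lipid breakdown and autophagy are among the known routes by which stored lipid is used.

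The 19 samples held from 2073171 to 7690892 counts (median 4954915). Levels are given as counts per 1000000 after TMM scaling (CPM), and 3 counts, the smallest level taken as shown, corresponded to 0.386 to 1.51 CPM. The shallowest sample was 0h M3. The defining transcripts of quiescent HSCs were present in the labelled cells at 0 h, with Reln at 2220 to 2382 CPM and Lrat at 735 to 1074 CPM. The 8 markers of activated HSCs summed to 2841 to 3654 CPM at 0 h, 1250 to 2214 CPM at 18 h and 5635 to 7790 CPM at 96 h. Among them Acta2 was at 51.7 to 138 CPM at 0 h and 2284 to 3992 CPM at 96 h, whereas Col3a1 had a mean of 1999 CPM at 0 h and 480 CPM at 96 h. The 5 bile duct cell markers summed to 10.8 to 19.1 CPM at 0 h, with Krt19 at 0 in all samples and Sox9 and Spp1 above 0. Transcripts of other liver cells were present at the start and declined, those of endothelial cells only after 3 h. The 12 Kupffer cell and macrophage markers summed to 510 to 599 CPM at 0 h and 303 to 527 CPM at 3 h, and to 37.7 to 53.1 CPM at 6 h. The 10 hepatocyte markers summed to 3406 to 7352 CPM at 0 h and 415 to 1255 CPM at 3 h, and the 9 sinusoidal endothelial markers to 639 to 979 CPM at 0 h and 773 to 2707 CPM at 3 h. In bulk RNA, fewer cells of a type and less RNA per cell cannot be told apart. Reads were tags from the 3' end of transcripts, and levels were compared between samples and not between genes.

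The CACGTG core was looked for in the promoters, since this is the sequence the regulator TFEB is known for. RefSeq promoter windows (GRCm38.p6, from 250 bases before to 50 bases after the transcription start, 300 bases in all) were at hand for 23 of the 28 genes. CACGTG, a palindrome that reads the same on both strands, stood in the windows of 9 of these 23 genes (39.1%) and of 2187 of 27025 genes in the whole table (8.09%). The longer palindrome TCACGTGA, which contains CACGTG, stood in 6 of the 23 genes (26.1%), against 1.12% of all genes. The longest form searched, the 10-base CLEAR consensus with TCACGTGA at its centre, stood in 0 of the 23 genes and in 0.37% of all genes. The sites below are those of TCACGTGA, shown because it is the rarer of the forms found, with the motif in capitals and each sequence in the direction of transcription.
Ctsa, chr2:164833751-164833776, plus strand: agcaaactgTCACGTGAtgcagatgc
Ctsa, chr2:164833768-164833793, plus strand: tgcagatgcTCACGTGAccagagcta
Ctsd, chr7:142387910-142387935, minus strand: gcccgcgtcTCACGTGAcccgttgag
Gla, chrX:134601217-134601242, minus strand: agcgattgaTCACGTGAgcatctacg
Gla, chrX:134601184-134601209, minus strand: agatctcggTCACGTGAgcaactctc
Mcoln1, chr8:3500464-3500489, plus strand: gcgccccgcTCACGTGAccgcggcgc
Atp6v0d1, chr8:105566052-105566077, minus strand: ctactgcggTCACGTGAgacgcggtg
Atp6v1a, chr16:44139375-44139400, minus strand: ttttttaaaTCACGTGAtaggcttaa
Lamp1 held 4 copies of the shorter CACGTG within 61 bases of its start, shown because no other window of these genes held as many.
Lamp1, chr8:13159090-13159115, plus strand: ggcaagatatCACGTGgtccagcgcc
Lamp1, chr8:13159106-13159131, plus strand: gtccagcgccCACGTGatgccgactg
Lamp1, chr8:13159123-13159148, plus strand: tgccgactggCACGTGaccacatcac
Lamp1, chr8:13159136-13159161, plus strand: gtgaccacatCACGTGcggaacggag
Glb1 and Ctsl held CACGTG as well, and Ctsd and Mcoln1 each held it once more beside the longer form. The windows of the other 14 genes did not contain these letters, which says nothing of sites elsewhere. They were Ctsz, Grn, Gusb, Hexa, Lamp2, Lipa, Man2b1, Manba, Neu1, Npc2, Psap, Scarb2, Tfeb and Tpp1. A match describes the sequence and not binding, and the motif was not tested against the measured changes.

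As a group and by share of counts, the lysosome genes were highest at 3 h and lowest between 12 and 24 h. At 96 h they were near but below their level in fresh HSCs. They took 0.479 and 0.492% of all counts in the 2 samples at 0 h, 0.548 to 0.641% at 3 h and 0.33 to 0.459% at 6 h. The share was 0.219 to 0.325% at 12 h, 0.207 to 0.284% at 18 h and 0.248 to 0.309% at 24 h, and it was 0.425 to 0.466% at 96 h. The ranges at 12, 18 and 24 h lay below those at each of the other times. All samples of 96 h lay below both of 0 h. M1 had the highest share of its time at 3, 6, 12, 18 and 24 h, and M3, with the same isolation date, lay near M2 in most of these. M1 also had the lowest total count and the highest endothelial marker sum of its time at every cultured timepoint (606 CPM at 12 h and 532 CPM at 18 h), and the part of either in its share was not tested. Shares are of counts and the sum is led by a few abundant transcripts, so single genes are given below.

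**Figure D1:**
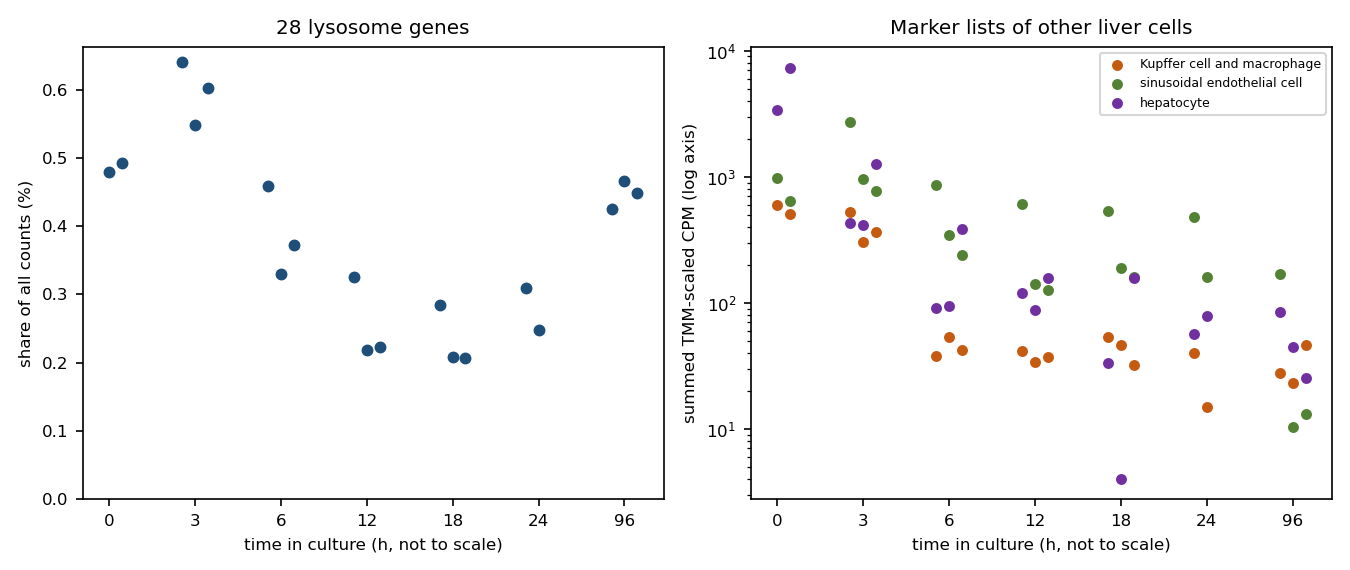
Left, share of all counts taken by the 28 lysosome genes (%), 1 point per sample. Right, summed TMM-scaled CPM (log axis) of marker lists of Kupffer cells, sinusoidal endothelial cells and hepatocytes in the same samples. The lysosome genes were at 0.479 and 0.492% at 0 h and 0.425 to 0.466% at 96 h. The Kupffer cell markers were at 510 to 599 CPM at 0 h and 23.3 to 46.2 CPM at 96 h.

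Part of this course coincided with falling marker transcripts of other liver cells, of which macrophages in particular are rich in lysosomes. Of the 12 Kupffer cell and macrophage markers, 1 was at 0 in every sample of 0 h, 7 were at 0 in every sample of 6 h, 9 at 12 h and 10 at 18 h. Clec4f, the defining Kupffer cell lectin, was at 61.3 and 62.7 CPM at 0 h and 36.6 to 104 CPM at 3 h, and at 0 in every sample of 6, 12, 18 and 96 h, with up to 0.257 CPM at 24 h. The part of these transcripts in the fall of the lysosome genes was not tested. At 96 h, 10 of the 12 macrophage markers were at 0 in all 3 samples, with a summed level of 23.3 to 46.2 CPM, and the hepatocyte and endothelial lists were also low, at 25.4 to 85.2 and 10.4 to 171 CPM.

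To ask which genes carried this course, each time was compared with 0 h by edgeR's quasi-likelihood test in a single fit of the 19 samples, with p-values adjusted over all 15138 genes and 0.1 as the limit. At 3 h, 1 of the 28 genes passed (3.57%), against 6.19% of all genes tested. It rose, as did 4.67% of all genes, while 1.52% fell. At 6 h, 3 passed (10.7%), against 12.6% of all genes. Of these 2 fell and 1 rose, where 4.68% of all genes fell and 7.91% rose. Neither total stood above its background. At 12 h, 11 passed (39.3%), against 19.4% of all genes. Of these 10 fell (35.7%) and 1 rose, where 9.58% of all genes fell and 9.78% rose, and 7 of the 10 fell by over 2-fold, as did 9.1% of all genes. At 18 h, 12 passed (42.9%), against 17.5% of all genes. All 12 fell, where 8.79% of all genes fell and 8.67% rose, and 9 of them fell by over 2-fold, as did 8.21% of all genes. At 24 h, 6 passed (21.4%), against 10.2% of all genes. All 6 fell, where 4.1% of all genes fell and 6.12% rose, and 5 of them fell by over 2-fold, as did 3.86% of all genes. At 96 h, 3 passed (10.7%), against 12.0% of all genes, and 2 of these were lower and 1 higher, where 5.44% of all genes were lower and 6.59% higher. The 28 genes had median log2 fold changes of 0.41 (3 h), -0.63 (6 h), -0.83 (12 h), -1.07 (18 h), -0.80 (24 h) and -0.01 (96 h). The median over all genes tested was 0 at each of these times except 96 h, where it was 0.07. These 6 comparisons share the samples of 0 h. The members were chosen with earlier results of these data known, so counts beside the background only describe this list. All samples of 12 h lay below all samples of 0 h in 16 of the 28 genes, as did 22.9% of all genes. For 18 h the number was 18 of 28, where it was 21.3% of all genes. Without the sample 0h M2, the number of lysosome genes that passed was 0 (3 h), 6 (12 h), 3 (24 h) and 1 (96 h), while the share of all genes in the same refit was 3.66, 11.8, 6.1 and 6.33%. Without 96h M3 it was also 1 at 96 h, with 9.34% of all genes. With the M number as a replicate block, 5 genes passed at 6 h, since Grn and Lamp1 joined the 3. In the same refit 13 passed at 12 h, since Ctsd and Hexa joined. The share of all genes in this refit was 12.3% at 6 h and 18.1% at 12 h.

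**Figure D2:**
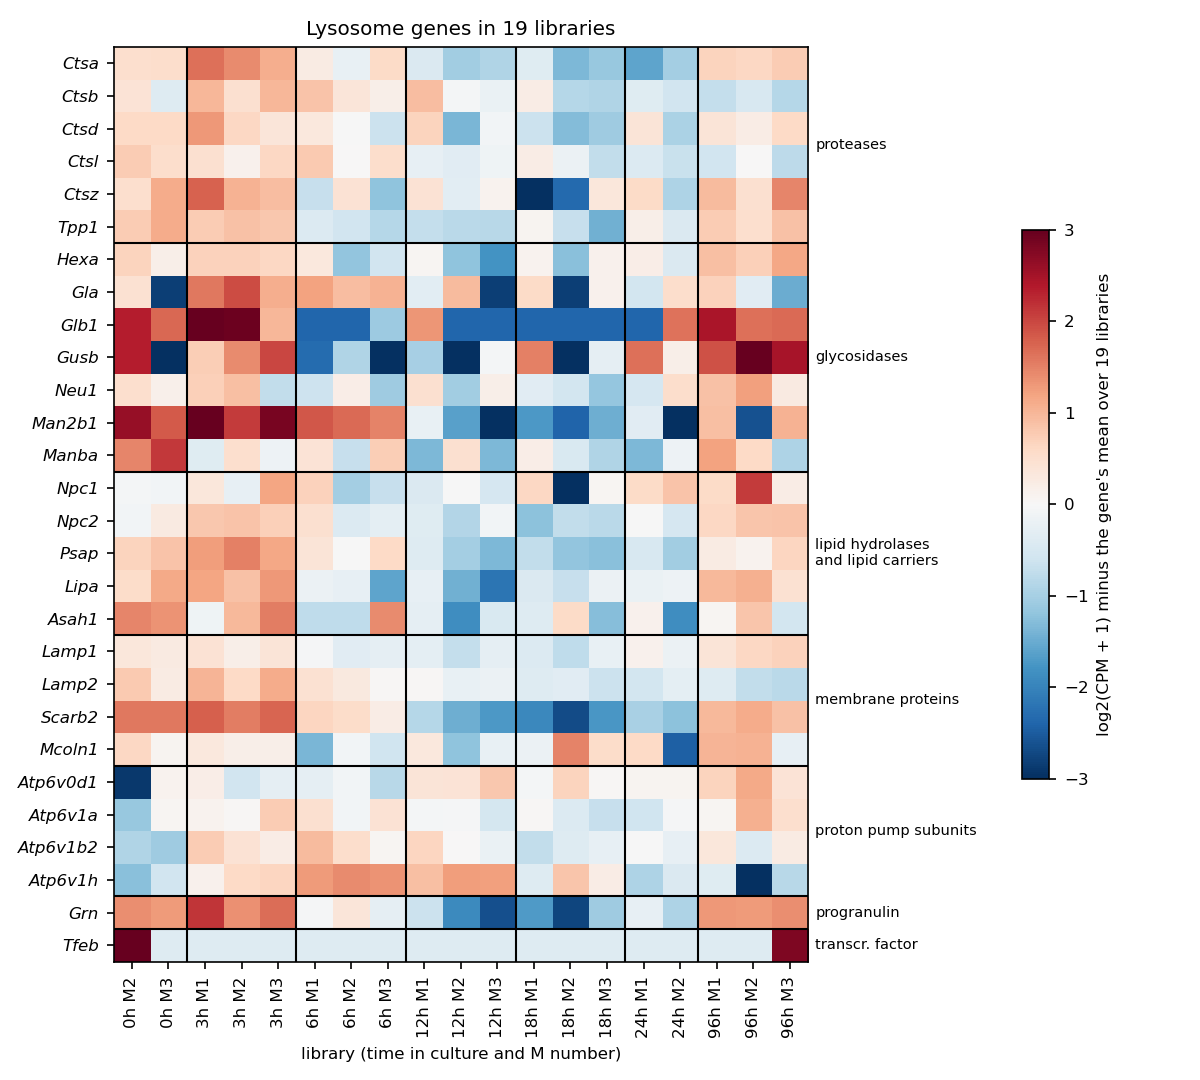
Level of each of the 28 lysosome genes in the 19 samples, as log2(CPM + 1) minus the mean of that gene over all samples, with genes grouped by role and vertical lines between times. Colours end at 3 above and below the mean. Most rows are red at 0, 3 and 96 h and blue from 12 to 24 h, the 4 proton pump rows are not, and Tfeb has counts in 2 samples only.

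A pair of comparisons did not involve the fresh cells. From 3 to 12 h, 11 of the 28 genes passed (39.3%), against 16.7% of all genes. All 11 fell, where 8.83% of all genes fell and 7.89% rose, and 10 of them fell by over 2-fold, as did 7.9% of all genes. These were Ctsa, Tpp1, Hexa, Man2b1, Npc2, Psap, Lipa, Lamp1, Lamp2, Scarb2 and Grn. From 12 to 96 h, 10 of the 28 passed (35.7%), against 15.5% of all genes. Of these 9 rose, where 7.74% of all genes rose, namely Ctsa, Tpp1, Hexa, Npc2, Psap, Lipa, Lamp1, Scarb2 and Grn, and 8 of the 9 rose by over 2-fold, as did 6.96% of all genes. The remaining gene, Ctsb, fell, as did 7.74% of all genes. These 2 comparisons share the samples of 12 h, so their calls are not independent. Over the 7 times together, 13 of the 28 genes changed (46.4%), against 27.4% of all genes tested.

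Among the membrane proteins, Scarb2 changed most clearly (chr5:92441314-92506833). It encodes LIMP-2, which carries the enzyme glucocerebrosidase to the lysosome. Its level was 836 and 844 CPM at 0 h and 973, 812 and 938 CPM at 3 h. It was 435, 408 and 325 CPM at 6 h, from 84.6 to 153 CPM at 12 h and 72.4, 42.5 and 82.9 CPM at 18 h. At 24 h it was 142 and 119 CPM and at 96 h 549, 609 and 512 CPM. The samples at 0 and 3 h overlapped, and no sample from 6 to 96 h reached them. Relative to the fresh cells it changed by -1.11 ± 0.26 (log2, SE) at 6 h (edgeR adjusted p = 0.0117), -3.67 ± 0.28 at 18 h (edgeR adjusted p = 2.81e-07) and -0.59 ± 0.26 at 96 h, where it did not pass (edgeR adjusted p = 0.203) except with DESeq2 (adjusted p = 0.0415) and in a fit of the 96 and 0 h samples alone (edgeR adjusted p = 0.0702). From 12 to 96 h it rose by 2.30 ± 0.25 (edgeR adjusted p = 1.31e-05). The calls that passed held when any sample was left out.

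The LAMP proteins, which make up much of the lysosomal membrane coat, are given in turn. Lamp1 (chr8:13159161-13175338) was at 450 and 431 CPM at 0 h, 484, 405 and 465 CPM at 3 h and 349, 283 and 294 CPM at 6 h. It was 292, 217 and 295 CPM at 12 h, 268, 210 and 304 CPM at 18 h, 391 and 316 CPM at 24 h and 462, 550 and 579 CPM at 96 h. All samples of 6 to 24 h lay below those of 0 h, and those of 96 h above them. Lamp1 fell by 0.72 ± 0.19 at 12 h (edgeR adjusted p = 0.0205) and by 0.76 ± 0.19 at 18 h (edgeR adjusted p = 0.0165) on the log2 scale, and it rose by 0.98 ± 0.18 from 12 to 96 h (edgeR adjusted p = 0.00141). The fall at 12 h did not pass without 0h M2 (edgeR adjusted p = 0.12), and that at 18 h did not pass with library sizes alone as the scaling (edgeR adjusted p = 0.106).

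Lamp2 (chrX:38401357-38456454) did not return. Its level was 486 and 339 CPM at 0 h, 579, 429 and 615 CPM at 3 h and 389, 346 and 289 CPM at 6 h. It was 292, 243 and 249 CPM at 12 h, 215, 224 and 182 CPM at 18 h, 192 and 231 CPM at 24 h and 215, 169 and 162 CPM at 96 h. Every sample from 12 h onwards lay below both of 0 h. Relative to the fresh cells it changed by -0.66 ± 0.22 at 12 h (edgeR adjusted p = 0.0537), -0.97 ± 0.24 at 24 h (edgeR adjusted p = 0.0193) and -1.18 ± 0.22 at 96 h (edgeR adjusted p = 0.00185). At 18 h its mean was 207 ± 22.3 CPM (SD, n = 3) against 413 ± 104 CPM at 0 h (SD, n = 2; edgeR adjusted p = 0.00523). The calls at 18 and 96 h held whichever sample was left out. That at 12 h was lost without 0h M2, 12h M2 or 12h M3, with adjusted p of up to 0.495, and that at 24 h without 0h M2 or 24h M1, with 0.214 and 0.205. Both were also lost with library sizes alone (edgeR adjusted p = 0.109 and 0.101) and in fits of the compared times alone (edgeR adjusted p = 0.115 and 0.101). From 12 to 96 h Lamp2 changed by -0.52 ± 0.20 (edgeR adjusted p = 0.108), and this passed with the M number as a block.

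Mcoln1 encodes TRPML1, a calcium channel of the lysosomal membrane. It was low and uneven, at 15.8 and 10.5 CPM at 0 h, 12.6, 11.5 and 11.3 CPM at 3 h and 3.26, 9.35 and 6.21 CPM at 6 h. It was 12.7, 3.73 and 8.41 CPM at 12 h, 8.77, 29.7 and 15.1 CPM at 18 h, 15.7 and 1.03 CPM at 24 h and 21.2, 21.8 and 8.25 CPM at 96 h. Its samples overlapped between most times and it passed in no comparison, with standard errors of 0.94 to 1.15 on the log2 scale, and only changes of several times this size could have passed.

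**Figure D3:**
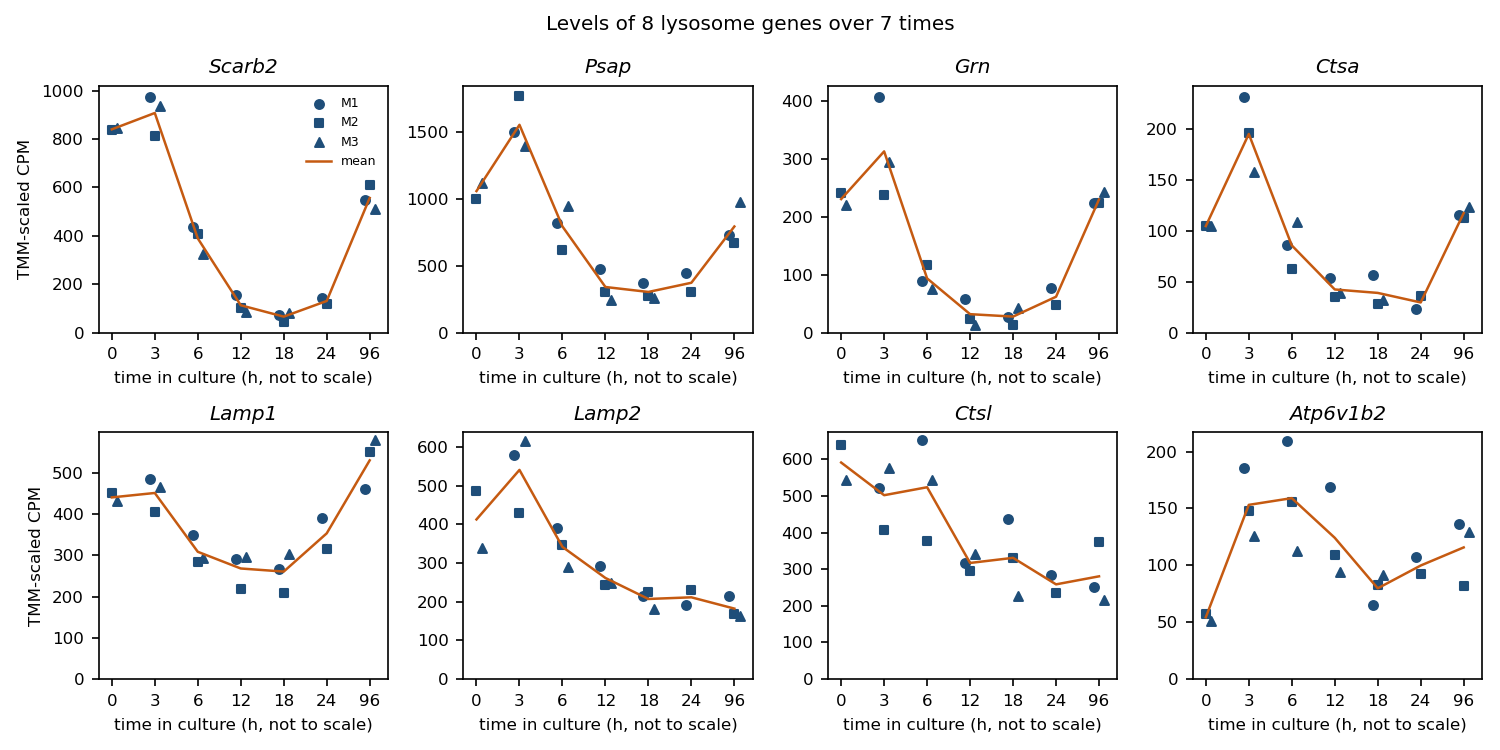
TMM-scaled CPM of 8 lysosome genes at the 7 times, with 1 symbol per sample (circle M1, square M2, triangle M3) and the mean of each time as a line; each vertical axis starts at 0. Scarb2, Psap, Grn and Ctsa dip between 12 and 24 h and are higher again at 96 h, Lamp2 and Ctsl stay low at 96 h, and Atp6v1b2 lies above its 0 h level at each later time.

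Of the 6 proteases, 3 fell at 12 h (9.58% of all genes) and 4 at 18 h (8.79% of all genes), and none rose at any time against 0 h. Ctsa encodes cathepsin A, a carboxypeptidase that also protects beta-galactosidase and neuraminidase (chr2:164832873-164841032). Its level was 104 and 105 CPM at 0 h, 232, 196 and 157 CPM at 3 h and 86, 62.4 and 109 CPM at 6 h. It was 53.5, 34.8 and 38.8 CPM at 12 h, 56.3, 28.3 and 32.4 CPM at 18 h, 23.6 and 35.6 CPM at 24 h and 116, 113 and 123 CPM at 96 h. The samples of 3 h all lay above those of 0 h, although the rise of 0.90 ± 0.35 did not pass (edgeR adjusted p = 0.206, or 0.0915 in a fit of these times alone), and those of 12 to 24 h all lay below. Against 0 h it changed by -1.30 ± 0.33 at 12 h (edgeR adjusted p = 0.0141), -1.43 ± 0.33 at 18 h (edgeR adjusted p = 0.00913) and -1.82 ± 0.38 at 24 h (edgeR adjusted p = 0.00601). The fall from 3 to 12 h was -2.20 ± 0.31 (edgeR adjusted p = 0.000213) and the rise from 12 to 96 h 1.47 ± 0.31 (edgeR adjusted p = 0.00451). The call at 24 h did not hold without 24h M1 (edgeR adjusted p = 0.103).

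Tpp1 encodes tripeptidyl peptidase 1, which removes tripeptides from protein ends (chr7:105744811-105752235). It was at 207 and 266 CPM at 0 h, 210, 226 and 215 CPM at 3 h and 92, 81.9 and 67.8 CPM at 6 h. It was 74.4, 69.4 and 68.9 CPM at 12 h, 130, 74.9 and 44.7 CPM at 18 h, 139 and 91.1 CPM at 24 h and 208, 175 and 226 CPM at 96 h. The 3 samples of 6 h were all below those of 0 and 3 h, and the fall amounted to -1.55 ± 0.33 (edgeR adjusted p = 0.00535) at 6 h and -1.74 ± 0.33 at 12 h (edgeR adjusted p = 0.00155). From 12 to 96 h it rose by 1.52 ± 0.30 (edgeR adjusted p = 0.00309). The fall of 1.51 ± 0.33 at 18 h (edgeR adjusted p = 0.00517) was lost in a fit of the 18 and 0 h samples alone (edgeR adjusted p = 0.103). At 24 h the change of -1.04 ± 0.37 did not pass (edgeR adjusted p = 0.111). It passed with the M number as a block (edgeR adjusted p = 0.0518) and with DESeq2 (adjusted p = 0.0122).

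The levels of cathepsins B, L and D follow, without a test between them. Ctsb, a cysteine protease, was at 395 and 228 CPM at 0 h, 595, 415 and 600 CPM at 3 h and 538, 384 and 336 CPM at 6 h. It was 564, 286 and 261 CPM at 12 h, 350, 164 and 159 CPM at 18 h, 232 and 198 CPM at 24 h and 181, 213 and 165 CPM at 96 h. No time differed from 0 h past the limit, although with the M number as a block the fall at 96 h passed (edgeR adjusted p = 0.092), and the samples of 3 h all lay above those of 0 h and the samples of 96 h all below. The fall from 12 to 96 h of -0.99 ± 0.35 passed (edgeR adjusted p = 0.0853). It did not pass without 12h M1 (-0.55, edgeR adjusted p = 0.332), and the same held without each sample of 96 h, with adjusted p of 0.123 to 0.215. Nor did it pass with library sizes alone (edgeR adjusted p = 0.111) or with isolation date as a covariate (edgeR adjusted p = 0.104).

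Ctsl, another cysteine protease, was at 639 and 544 CPM at 0 h, 521, 408 and 578 CPM at 3 h and 652, 377 and 544 CPM at 6 h. It was 316, 295 and 341 CPM at 12 h, 436, 331 and 226 CPM at 18 h, 283 and 234 CPM at 24 h and 251, 375 and 216 CPM at 96 h. All samples from 12 h onwards lay below those of 0 h, and Ctsl, like Lamp2, was not higher again at 96 h. Ctsl changed by -0.90 ± 0.29 at 12 h (edgeR adjusted p = 0.0476), -1.19 ± 0.32 at 24 h (edgeR adjusted p = 0.0309) and -1.08 ± 0.29 at 96 h (edgeR adjusted p = 0.0256). Each of these was lost without 0h M2, with adjusted p of 0.213, 0.135 and 0.162. The call at 12 h was also lost without 12h M2 (0.112), that at 24 h without 24h M2 (0.246) and that at 96 h without 96h M3 (0.108). The change at 18 h (-0.84 ± 0.29, edgeR adjusted p = 0.0708) was lost without any of 0h M2, 0h M3, 18h M2 and 18h M3, with adjusted p of 0.109 to 0.223. With library sizes alone neither the 18 h call (edgeR adjusted p = 0.222) nor the 24 h call (edgeR adjusted p = 0.122) passed.

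Ctsd, an aspartic protease, was at 185 CPM in both samples of 0 h, 302, 189 and 156 CPM at 3 h and 151, 121 and 77.1 CPM at 6 h. It was 192, 46.3 and 114 CPM at 12 h, 77.5, 49 and 57.7 CPM at 18 h, 159 and 62.5 CPM at 24 h and 160, 143 and 185 CPM at 96 h. Only at 18 h were the 3 samples close together and low. This was its single fall past the limit without a block, -1.59 ± 0.49 (edgeR adjusted p = 0.0426), and it was lost without any of 0h M2, 0h M3, 18h M2 and 18h M3, with adjusted p of 0.107 to 0.126. With the M number as a block Ctsd also fell at 12 h against 0 h (edgeR adjusted p = 0.0971) and from 3 to 12 h (edgeR adjusted p = 0.0924). Ctsz, a carboxypeptidase, ranged from 0 to 85.3 CPM over the samples and passed in no comparison, except from 3 to 12 h in a fit of these times alone (-1.24, edgeR adjusted p = 0.0736).

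Of the 5 lipid hydrolases and lipid carriers, Psap was the most clearly changed (chr10:60277627-60302597). It encodes prosaposin, the precursor of the saposins that present sphingolipids to their hydrolases. Its level was 994 and 1119 CPM at 0 h, 1494, 1765 and 1394 CPM at 3 h and 817, 616 and 945 CPM at 6 h. It was 473, 305 and 244 CPM at 12 h, 374, 275 and 261 CPM at 18 h, 443 and 301 CPM at 24 h and 732, 671 and 972 CPM at 96 h. Every sample of 12, 18 and 24 h lay below every sample of the other times. Psap fell at 3 timepoints, with changes of -1.63 ± 0.27 at 12 h (edgeR adjusted p = 0.000587), -1.80 ± 0.27 at 18 h (edgeR adjusted p = 0.000273) and -1.51 ± 0.31 at 24 h (edgeR adjusted p = 0.00526), and from 12 to 96 h it rose by 1.22 ± 0.25 (edgeR adjusted p = 0.00408). These calls held when any sample was left out.

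Npc1 and Npc2 together hand cholesterol out of the lysosome. Npc1 was at 16 and 15.6 CPM at 0 h, 21.2, 13.9 and 38.8 CPM at 3 h and 27.3, 7.75 and 9.87 CPM at 6 h. It was 12, 16.6 and 11.3 CPM at 12 h, 26.1, 0 and 17.5 CPM at 18 h, 25.3 and 30.7 CPM at 24 h and 25.2, 73.9 and 19.7 CPM at 96 h. Its samples were scattered and it passed in no comparison. Npc2 had a mean of 142 ± 25.9 CPM at 0 h (SD, n = 2) and 229 ± 12.2 CPM at 3 h (SD, n = 3), 69.7 ± 12.4 CPM at 18 h (SD, n = 3) and 225 ± 19.8 CPM at 96 h (SD, n = 3). It fell by 1.02 ± 0.29 at 18 h against 0 h on the log2 scale (edgeR adjusted p = 0.0285), which was lost without 0h M3 (edgeR adjusted p = 0.189), and it rose by 1.18 ± 0.27 from 12 to 96 h (edgeR adjusted p = 0.0078). The difference between the courses of these 2 genes was not tested.

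Lipa encodes lysosomal acid lipase, which cleaves cholesteryl esters, triglycerides and retinyl esters. It was at 43.4 and 65.8 CPM at 0 h and at 24.3, 10.2 and 5.6 CPM at 12 h, without overlap. The fall was -2.03 ± 0.58 (edgeR adjusted p = 0.0258), and was lost without 0h M3 (edgeR adjusted p = 0.171) and in a fit of the 12 and 0 h samples alone (edgeR adjusted p = 0.15). It rose by 2.01 ± 0.54 from 12 to 96 h (edgeR adjusted p = 0.0224), to 58.5, 62 and 40.6 CPM. Against 0 h Lipa also fell at 6 and 18 h with DESeq2 (adjusted p = 0.0182 and 0.0268). Asah1, the acid ceramidase, passed in no comparison. Its mean was 50.3 ± 2.97 CPM at 0 h (SD, n = 2) and 10.7 ± 5.73 CPM at 12 h (SD, n = 3), with a log2 fold change of -2.23 ± 0.92 (edgeR adjusted p = 0.129, DESeq2 adjusted p = 0.03).

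The 7 glycosidases, which trim sugars from glycoproteins and glycolipids, were mostly low, and some of their log2 fold changes had wide errors. Man2b1, a lysosomal alpha-mannosidase (chr8:85083270-85098282), was at 166 and 96.4 CPM at 0 h, 252, 116 and 195 CPM at 3 h and 99.1, 87.3 and 76.2 CPM at 6 h. It was 22.2, 7.8 and 0.267 CPM at 12 h, 7.31, 4.21 and 8.94 CPM at 18 h, 20.6 and 0 CPM at 24 h and 50.2, 3.46 and 54.9 CPM at 96 h. All samples from 12 h onwards lay below those of 0 h. Man2b1 changed by -3.71 ± 1.41 at 12 h (edgeR adjusted p = 0.0956) and -4.26 ± 1.44 at 18 h (edgeR adjusted p = 0.0663). The call at 18 h was lost without any single sample that entered it, and that at 12 h without any except 12h M1. Without 0h M2 the log2 fold changes were -3.27 at 12 h and -3.88 at 18 h. The call at 12 h was lost as well with library sizes alone (edgeR adjusted p = 0.107). In a fit of the 12 and 0 h samples alone it was also lost (edgeR adjusted p = 0.148). The fall of 4.23 ± 1.38 from 3 to 12 h on the log2 scale (edgeR adjusted p = 0.0592) was lost without 3h M1, 12h M2 or 12h M3, with adjusted p of 0.123 to 0.168.

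Glb1 encodes beta-galactosidase, whose activity is a common readout of senescent cells (chr9:114401076-114474898). It was at 25.6 and 16.1 CPM at 0 h, 52.4, 38.8 and 9.37 CPM at 3 h and 0, 0 and 1.46 CPM at 6 h. It was 12, 0 and 0 CPM at 12 h, 0 in all 3 samples of 18 h, 0 and 15.2 CPM at 24 h and 27.2, 15.4 and 15.8 CPM at 96 h. With 0 counts set at a floor of 3 counts per sample, the measured level at 18 h was 34.4-fold lower than at 0 h (edgeR adjusted p = 0.0591). Samples ranged from 0 to 12 CPM at 12 h and from 0 to 15.2 CPM at 24 h, so the size of this fold is uncertain. The call was lost without 0h M2. It was also lost without any single sample of 18 h, with edgeR adjusted p of 0.127 to 0.138. Hexa, the alpha subunit of beta-hexosaminidase, fell by 1.47 ± 0.51 from 3 to 12 h on the log2 scale (edgeR adjusted p = 0.0767) and rose by 1.73 ± 0.52 from 12 to 96 h (edgeR adjusted p = 0.0405). The fall was lost without any sample except 12h M1, and the rise without 12h M2, 12h M3 or 96h M3. At 12 h against 0 h Hexa fell past the limit with the M number as a block (edgeR adjusted p = 0.0477). It also did so with isolation date as a covariate (edgeR adjusted p = 0.092) and with DESeq2 (adjusted p = 0.0544). Gla, Gusb, Neu1 and Manba passed in no comparison, with lowest and highest levels of 0 and 26.6 CPM, 0 and 83.3 CPM, 12.1 and 67.8 CPM and 0 and 10.0 CPM. Gusb passed from 12 to 96 h in a fit of these times alone (edgeR adjusted p = 0.0993).

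Grn encodes progranulin, which is cleaved in the lysosome and binds prosaposin (chr11:102430315-102437048). Its level was 240 and 220 CPM at 0 h, 406, 237 and 295 CPM at 3 h and 89, 117 and 74.9 CPM at 6 h. It was 57.9, 23.6 and 13.9 CPM at 12 h, 27.5, 12.6 and 42.6 CPM at 18 h, 76.6 and 47.2 CPM at 24 h and 224, 223 and 242 CPM at 96 h. All samples of 6 to 24 h lay below those of 0 h, and the 96 h samples lay among or next to them. Grn changed by -2.86 ± 0.51 at 12 h (edgeR adjusted p = 0.00101) and -3.06 ± 0.52 at 18 h (edgeR adjusted p = 0.000682), and from 12 to 96 h it rose by 2.86 ± 0.48 (edgeR adjusted p = 0.000847). These held when any sample was left out. The change of -1.30 ± 0.50 at 6 h did not pass (edgeR adjusted p = 0.128), and passed with the M number as a block (edgeR adjusted p = 0.0909), in a fit of these times alone (edgeR adjusted p = 0.0575) and by DESeq2 (adjusted p = 0.0264). The change at 24 h (-1.90 ± 0.57, edgeR adjusted p = 0.0548) was lost without any of the 4 samples compared, with adjusted p of 0.13 to 0.407.

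Of the 4 subunits of the V-ATPase 1 rose against 0 h, where from 4.67% (3 h) to 9.78% (12 h) of all genes rose. The others of these 4 did not pass against 0 h in the fit of all 19 samples. Atp6v1b2, a subunit of its ATP-cleaving head (chr8:69088646-69113711), was at 57.4 and 51.2 CPM at 0 h, 186, 148 and 126 CPM at 3 h and 209, 156 and 112 CPM at 6 h. It was 169, 109 and 94.2 CPM at 12 h, 65.1, 82.8 and 91.4 CPM at 18 h, 108 and 91.9 CPM at 24 h and 137, 81.6 and 129 CPM at 96 h. Every cultured sample lay above both fresh samples. It rose by 1.49 ± 0.34 at 3 h on the log2 scale (edgeR adjusted p = 0.0179), 1.55 ± 0.34 at 6 h (edgeR adjusted p = 0.00761), 1.19 ± 0.34 at 12 h (edgeR adjusted p = 0.0258) and 1.09 ± 0.34 at 96 h (edgeR adjusted p = 0.0568). Without 0h M3 none of these passed, with adjusted p of 0.102 to 0.287, and without 0h M2 the rise at 6 h alone passed. The call at 96 h was also lost without 96h M1 (edgeR adjusted p = 0.154) and without 96h M3 (edgeR adjusted p = 0.143). It was lost as well without the filter on low counts (edgeR adjusted p = 0.134).

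Atp6v1h, a regulatory subunit of the head, had a mean of 17.3 ± 6.05 CPM at 0 h (SD, n = 2) and 84.4 ± 3.95 CPM at 6 h (SD, n = 3), with all samples of 6 h above those of 0 h and a log2 fold change of 2.29 ± 1.09 (edgeR adjusted p = 0.23). Its mean was 73.1 ± 9.74 CPM at 12 h (SD, n = 3) and 14.4 ± 13 CPM at 96 h (SD, n = 3), a change of -2.35 ± 0.93 (edgeR adjusted p = 0.129). It passed at 6 and 12 h in fits of the compared times alone (edgeR adjusted p = 0.0315 and 0.0337), and its change from 12 to 96 h passed with DESeq2 (adjusted p = 0.0426). Atp6v1a, the catalytic subunit, was at 70.5 and 163 CPM at 0 h and 163, 325 and 221 CPM at 96 h, a change of 1.02 ± 0.39 (edgeR adjusted p = 0.136). Its rise from 12 to 96 h passed by DESeq2 (adjusted p = 0.0696). Atp6v0d1, of the membrane sector, was at 3.51 and 35.1 CPM at 0 h, so that its 2 fresh samples stood far apart. The median log2 fold change of the 4 subunits was positive at each time, from 0.55 at 24 h to 1.26 at 12 h, while those of the proteases, glycosidases, lipid genes and membrane proteins were negative from 6 to 24 h. These medians were not tested against each other.

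**Figure D4:**
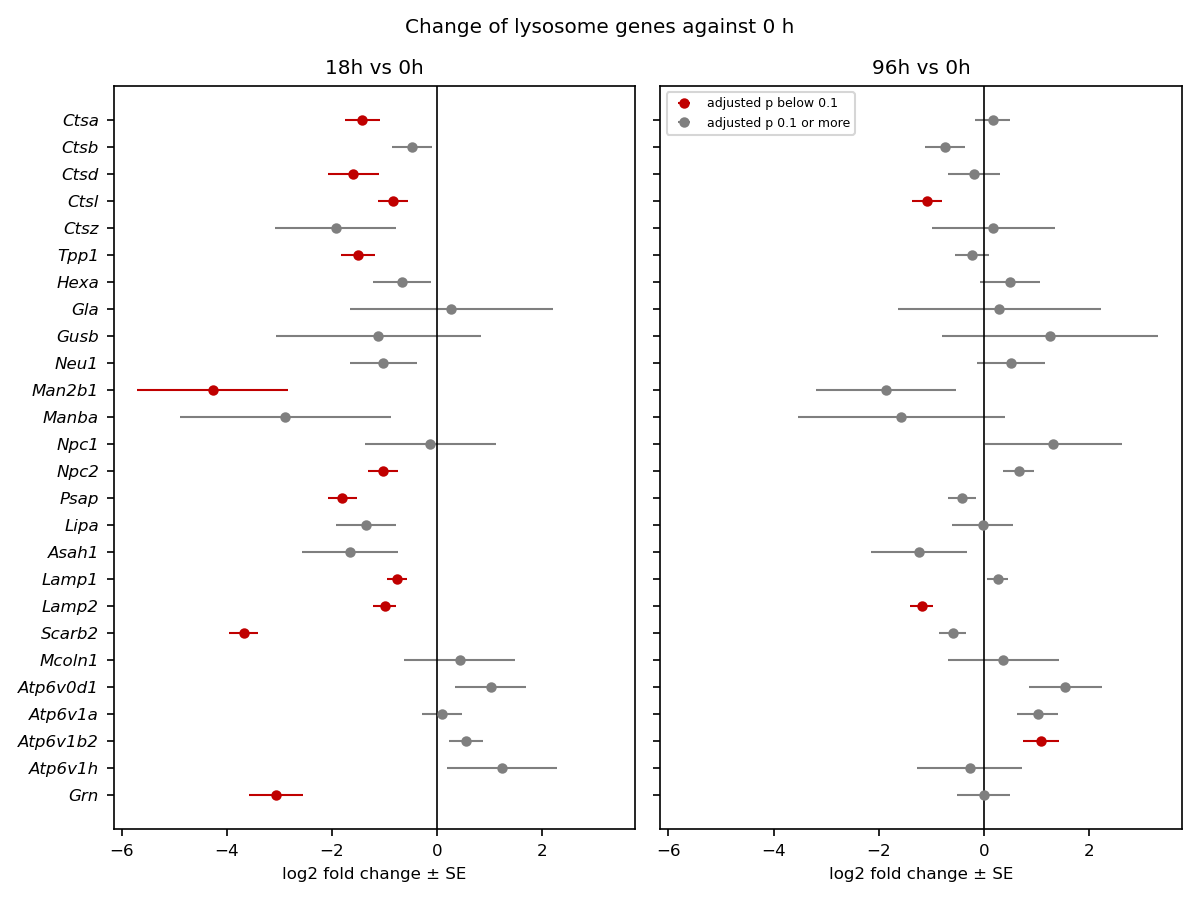
Log2 fold change with its standard error of 26 lysosome genes at 18 h (left) and 96 h (right) against 0 h, in red where the adjusted p was below 0.1. Tfeb and Glb1 are not drawn because all samples of a time were at 0 counts. At 18 h the genes that passed lay between -4.26 for Man2b1 and -0.76 for Lamp1; at 96 h Ctsl, Lamp2 and Atp6v1b2 passed.

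Tfeb, the transcription factor itself, was barely covered. It had 67 counts in 0h M2 and 48 counts in 96h M3, which are 16.8 and 8.09 CPM, and 0 counts in the other 17 samples. No fold is given, as each time held a sample at 0 counts, and it passed in no comparison. Counts of 0 here show only that the level was under about 3 counts per sample, and they say nothing of the location or activity of the protein, through which TFEB is mainly regulated.

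Around these 28 genes, 106 further genes of the pathway in 7 lists were followed, of which 104 passed the filter. At 12 h, 18 of the 104 fell and 9 rose, where 9.58% of all genes fell and 9.78% rose. At 18 h 15 fell and 6 rose, where 8.79% of all genes fell and 8.67% rose. From 12 to 96 h, 15 rose and 4 fell, where 7.74% of all genes moved each way. The median log2 fold change of the 104 genes was -0.63 at 12 h and -0.06 at 96 h, or -0.65 and -0.09 with genes at 0 counts set at their bound. Among the 9 other lysosomal proteases and cathepsin inhibitors, 3 fell and 2 rose at 12 h, beside the same 9.58 and 9.78% of all genes. The inhibitors were split: Cstb, cystatin B, which blocks cathepsins inside the cell, rose from 108 ± 5.05 CPM at 0 h (SD, n = 2) to 366 ± 27.2 CPM at 12 h (SD, n = 3) and 655 ± 57.7 CPM at 96 h (SD, n = 3), and Cst3, the secreted cystatin C, fell from 1593 ± 108 CPM at 0 h (SD, n = 2) to 396 ± 12.2 CPM at 18 h (SD, n = 3) and was at 1456 ± 283 CPM at 96 h (SD, n = 3). Cstb thus changed by 2.61 ± 0.20 at 96 h (edgeR adjusted p = 4.19e-07) and Cst3 by -2.01 ± 0.25 at 18 h (edgeR adjusted p = 3.6e-05).

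Among the 22 other hydrolases and cofactors tested, 7 fell at 12 h (9.58% of all genes), 4 at 18 h (8.79% of all genes) and none rose at any time against 0 h, with a median of -2.56 at 12 h. Gm2a, the activator protein for ganglioside GM2, was at 47.5 ± 18.9 CPM at 0 h (SD, n = 2) and at 0 in all samples of 12 and 24 h. With 0 counts set at the floor it was 88.9-fold lower at 12 h (edgeR adjusted p = 0.00792). Its samples ranged from 0 to 19.9 CPM at 96 h, so the size of this fold is uncertain. Among the 15 other membrane proteins tested, 2 rose and 1 fell at 12 h, where 9.78% of all genes rose and 9.58% fell. Litaf, an adaptor of late endosomes, rose by 2.84 ± 0.25 at 3 h (edgeR adjusted p = 5.4e-06), and Laptm4a, a small lysosomal membrane protein, fell by 1.60 ± 0.16 at 18 h on the log2 scale (edgeR adjusted p = 3.47e-06).

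Of the 13 other V-ATPase subunits, 0 passed at 12 h against 0 h, where 19.4% of all genes passed. At 6 h 1 fell, where 4.68% of all genes fell, and 4 fell from 3 to 12 h, where 8.83% of all genes fell. Over the 7 times 4 of the 13 passed, against 27.4% of all genes. Atp6v0c, the proton-carrying ring subunit, rose by 1.29 ± 0.25 at 3 h (edgeR adjusted p = 0.00522), which was lost without 0h M2 (edgeR adjusted p = 0.11). Atp6v1f, of the head, changed by -0.97 ± 0.32 at 18 h (edgeR adjusted p = 0.0629), which was lost without 0h M2, 18h M2 or 18h M3, with adjusted p of 0.159 to 0.292, and with library sizes alone (edgeR adjusted p = 0.168). At 96 h all 13 had a positive log2 fold change, with a median of 0.52, where the median over all genes was 0.07. Of the 13, 1 passed, Atp6v0c (1.02 ± 0.25, edgeR adjusted p = 0.0143), where 6.59% of all genes were higher. This call was lost without 0h M2, with a log2 fold change of 0.78.

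Among the 12 genes that sort proteins to the lysosome, Rab7, the GTPase of late endosomes, rose in each comparison with 0 h, from 219 ± 3.52 CPM (SD, n = 2) to 506 ± 43.5 CPM at 96 h (SD, n = 3), a log2 fold change of 1.21 ± 0.24 (edgeR adjusted p = 0.00331). Its calls at 3, 12 and 18 h were lost without a single sample of 0 h, with adjusted p of 0.1 to 0.14. Gga1, an adaptor for mannose 6-phosphate receptors, fell by 1.37 ± 0.37 from 12 to 96 h on the log2 scale (edgeR adjusted p = 0.0254), which was lost without the filter on low counts (edgeR adjusted p = 0.101). No more than 2 of the 12 passed at any time against 0 h (19.4% of all genes at 12 h).

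Among the 17 regulators and nutrient sensors, 4 rose and 1 fell at 6 h, where 7.91% of all genes rose and 4.68% fell, and 2 rose and 2 fell at 12 h, near the 9.78 and 9.58% of all genes. Fnip1, a partner of folliculin in nutrient sensing at the lysosome, rose by 2.59 ± 0.43 at 3 h (edgeR adjusted p = 0.00173) and was at 38.3 ± 4.88 CPM at 96 h (SD, n = 3) against 32.5 ± 13.7 CPM at 0 h (SD, n = 2). Ppp3ca, the catalytic subunit of calcineurin, which dephosphorylates TFEB, fell by 1.05 ± 0.28 at 12 h on the log2 scale (edgeR adjusted p = 0.019), which was lost without 0h M2 (edgeR adjusted p = 0.177), and rose by 1.30 ± 0.26 from 12 to 96 h (edgeR adjusted p = 0.00302).

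Of the 16 autophagy genes, 4 fell and 2 rose at 12 h, where 9.58% of all genes fell and 9.78% rose. Sqstm1 encodes p62, the receptor that carries cargo into autophagosomes. It was at 298 ± 107 CPM at 0 h (SD, n = 2), 1439 ± 144 CPM at 3 h (SD, n = 3), 1748 ± 361 CPM at 6 h (SD, n = 3), 1681 ± 263 CPM at 12 h (SD, n = 3), 1134 ± 165 CPM at 18 h (SD, n = 3), 733 ± 6.46 CPM at 24 h (SD, n = 2) and 271 ± 29.8 CPM at 96 h (SD, n = 3). It was thus already high at 3 h and declined after 12 h, with a log2 fold change of 2.50 ± 0.25 at 12 h (edgeR adjusted p = 3.69e-06) and of -2.63 ± 0.21 from 12 to 96 h (edgeR adjusted p = 8.25e-07). Wipi1, which binds the forming autophagosome membrane, went from 211 ± 12.4 CPM at 0 h (SD, n = 2) to 85 ± 26.7 CPM at 3 h (SD, n = 3), 17.6 ± 7.9 CPM at 12 h (SD, n = 3) and 172 ± 48.7 CPM at 96 h (SD, n = 3). Its log2 fold change was -3.59 ± 0.44 at 12 h (edgeR adjusted p = 3.25e-05) and 3.30 ± 0.42 from 12 to 96 h (edgeR adjusted p = 6e-05).

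**Figure D5:**
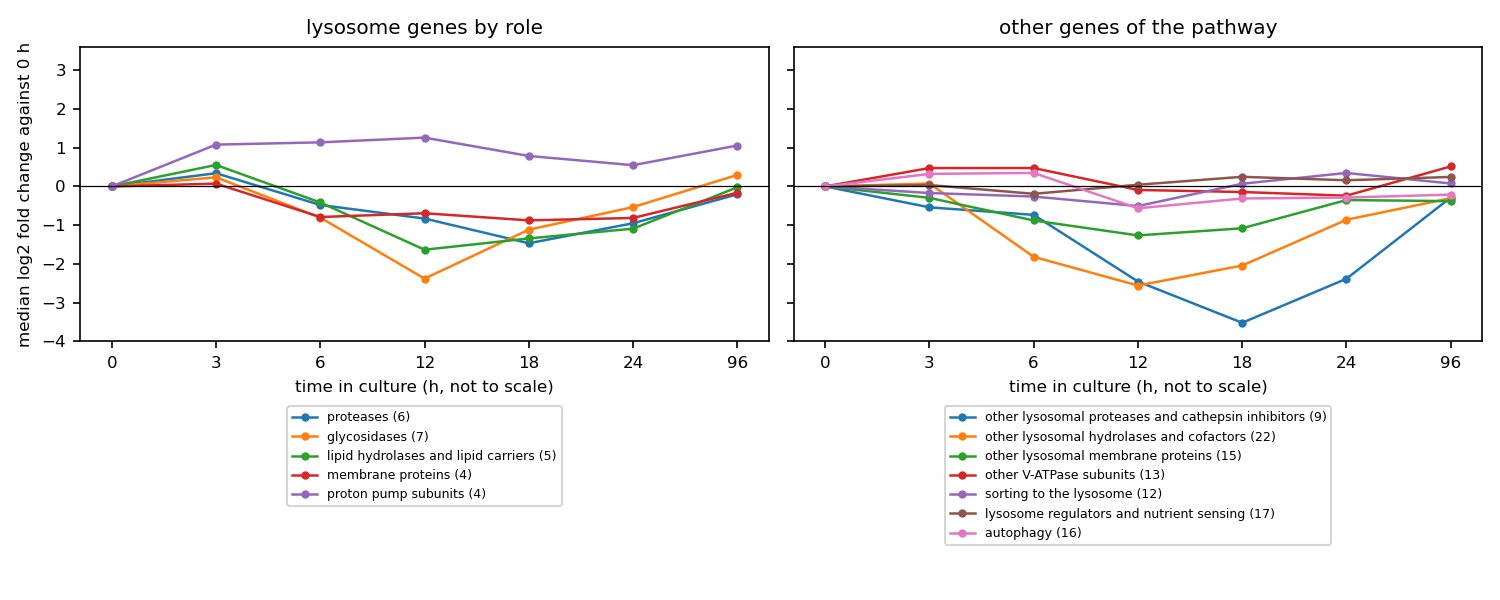
Median log2 fold change against 0 h, by time, of the lysosome genes by role (left) and of 7 lists of other genes of the pathway (right), with the number of genes tested in parentheses and genes at 0 counts set at their bound. The 4 proton pump subunits lie above 0 at each time, up to 1.26 at 12 h, and the glycosidases reach -2.38 at 12 h. Among the other lists the proteases and inhibitors go lowest, to -3.52 at 18 h. The 13 other V-ATPase subunits lie below 0 from 12 to 24 h, at -0.09 to -0.24.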

How the data were processed

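RNASeq of 19 samples of cultured mouse HSCs was used. Libraries were 3' mRNA tags (QuantSeq FWD). The authors deposited unnormalised whole-number counts per Ensembl gene. Single-end reads had been mapped with STAR to GRCm38.p6 (mm10) and processed with StringTie; the counting tool, its strand setting and the annotation release are not given in the sources used here, so reads of overlapping genes may be shared. Unused columns numbered 0. Symbols and positions came from GENCODE vM21.

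Genes were filtered with filterByExpr (15138 of 55487 kept), scaled by TMM and fitted with edgeR 4.0.16 (R 4.3.3, limma 3.58.1) over 7 times with no covariate; SE is the log2 fold change divided by the root of F. P-values were adjusted by Benjamini-Hochberg over all genes, with 0.1 as the limit. The common biological coefficient of variation was 1.06. Alternatives were DESeq2 1.42.0, library size alone, no filter, the M number as replicate block, isolation date, the compared groups alone, a limit of 0.05, a 2-fold limit, and leaving out each sample. The M numbers were taken as pairing because each label joins a number to an isolation date; residuals of same-numbered samples correlated at 0.014 on average over 51 pairs (-0.072 to 0.082). Scripts were tested on simulated counts.

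The 28 members and all lists were chosen with earlier results of these data known. Genes with values in every sample are Tfeb, Ctsb, Ctsd, Ctsl, Lamp1, Npc1, Mcoln1, the 6 with the smallest p over the 7 times, and the 4 largest falls and rises; of each further list the 2 with the smallest p were named, except where a result is not reported here.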

Additional observations from a re-analysis of the deposited data

How the results depend on the processing

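Of 57 calls of single lysosome genes, none changed direction under any alternative. All 57 passed with DESeq2 and with the replicate block, 56 without the filter on low counts, 56 with isolation date as a covariate, 51 in fits of the compared groups alone and 49 with library size alone. Of 300 refits that left out a sample, 64 lost their call. Apart from refits that left out a sample, counts of lysosome genes moved by over 1.5 times at 6 and 3 h only. At 6 h, 3 genes passed in the main fit, where 12.6% of all genes passed. With DESeq2 it was 6 genes and 19.4% of all genes, and with the replicate block 5 genes and 12.3%. A fit of the compared groups alone also gave 5 genes, with 14.3% of all genes. At 3 h such a fit gave 2 genes, with 9.39% of all genes, against 1 and 6.19% in the main fit. Leaving out a sample gave 0 to 1 genes at 3 h, 3 to 4 at 6 h, 6 to 13 at 12 h, 8 to 10 at 18 h, 3 to 6 at 24 h and 1 to 4 at 96 h, with 9 to 14 from 3 to 12 h, 8 to 10 from 12 to 96 h and 12 to 16 over all times. The share of all genes that passed changed with each refit too, so these ranges are not to be set against the shares of the main fit. The replicate block ended the call of no lysosome gene. Where a call was lost by leaving out a sample of a time with 2, the lone sample was assumed to vary like the other times; apart from the smaller number of samples, the cause was not tested.

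Library size alone moved the median of all genes by up to 0.27 (24 h) and DESeq2 by up to -0.24 (18 h) on the log2 scale. Under these 3 scalings the median of the 28 genes stayed negative from 6 to 24 h, and at 96 h it was -0.01, 0.13 with library size alone and -0.16 with DESeq2, so no direction is given there. With 2 samples at 0 h, 2 at 24 h and low counts for Gla, Glb1, Gusb, Manba, Mcoln1 and Tfeb, smaller changes of these genes were not detectable.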
